A study of Homo sapiens with 8 samples.

Results

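K562 cells in which IRF2 was targeted with either of a pair of CRISPRi guides were set against every control library of the study, taken as 1 group. The 4 IRF2-guide libraries (2 with sg1-IRF2, 2 with sg2-IRF2) and the 4 controls (2 with sgAAVS1, 2 untransduced) are all 8 libraries of the series. Each library was centred on its median over the genes whose log2 values average 0 or more, and the genes described here are those in which all 4 IRF2-guide libraries lay on one side of all 4 controls. There were 550 such genes among 14665 tested and 35805 listed, 317 with the IRF2-guide libraries lower and 233 with them higher.

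K562 is an established human line from a chronic myeloid leukaemia with erythroid features. All 8 libraries, controls included, came from cells that carry dCas9-KRAB, a catalytically dead Cas9 joined to a repressor domain, which a guide brings to a promoter to silence it. In the labels the untransduced group has no guide and is titled dCas9, sgAAVS1 is the negative-control guide to the AAVS1 site, and RNA of transduced cells was taken 7 days after transduction. Total RNA was depleted of ribosomal RNA and sequenced from directional libraries. The labels do not say whether the cells are 1 clone. Nor do they say that replicates are separate cultures, and p-values then reflect only the spread of these libraries, which may be technical.

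IRF2 belongs to the interferon regulatory factors, which bind interferon-stimulated response elements, promoter stretches built from repeats of the letters GAAA. It was first described as a competitor of IRF1 that dampens interferon-driven transcription, and it is also known as an activator of some of the same genes, among them genes of antigen presentation and the pyroptosis gene GSDMD. Interferon-stimulated genes can be transcribed at a low level without added interferon, and the labels name no interferon treatment.

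Recovered reads over the listed genes were 5748809 to 6440681 per library with IRF2 guides and 5248359 to 6738348 in controls. The first principal component (28.9% of the variance over 12500 genes) had all 4 IRF2-guide libraries on one side of all 4 controls. Its ends were sg1-IRF2 (11.9 and 10.8) and untransduced libraries (-11.0 and -11.8). Between them sg2-IRF2 (1.37 and 0.85) and sgAAVS1 (-0.99 and -1.21) lay close together. The second component (25.2%) set sg2-IRF2 (-9.11 and -10.1) apart from sgAAVS1 (10.2 and 12.7). By chi-square per gene, where counting noise alone gives 1, replicates differed by less than sampling noise with sg1-IRF2 (0.777), with sg2-IRF2 (0.644) and in untransduced cells (0.818), but not with sgAAVS1 (1.69). Each sgAAVS1 library was nearer to the sg1-IRF2 library of its own number (1.11 and 1.24) than to the other sgAAVS1 library. Because of this, counts are also given below with each of the 4 groups counted as 1 sample. Erythroid genes of K562 were expressed: summed reads of 31 listed erythroid genes were 18350 to 20065 with IRF2 guides and 17045 to 20778 in controls, HBB, the adult beta-globin gene, had at most 1 read per library, and CD2, IL7R and MS4A1, lymphoid markers, had none.

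The promoters of 6 of the genes that fell most are shown to display the letters an interferon-stimulated response element is built on. The genes are the first 6 in order of difference with a match to GAAA, 2 bases of any kind and GAAA again, in a RefSeq promoter window (GRCh38.p14). Each line gives 180 bases before to 20 bases after the start, 5′ to 3′ on the strand of the gene. Capitals mark matches on either strand; in TAP1 they are 2 overlapping matches on the other strand, read as TTTC repeats.
LGALS3BP, chr17:78979904-78980103, minus strand: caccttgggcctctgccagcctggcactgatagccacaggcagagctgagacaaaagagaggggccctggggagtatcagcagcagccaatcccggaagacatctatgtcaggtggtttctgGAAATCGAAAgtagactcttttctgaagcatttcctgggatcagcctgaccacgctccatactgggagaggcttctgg
IFI6, chr1:27672173-27672372, minus strand: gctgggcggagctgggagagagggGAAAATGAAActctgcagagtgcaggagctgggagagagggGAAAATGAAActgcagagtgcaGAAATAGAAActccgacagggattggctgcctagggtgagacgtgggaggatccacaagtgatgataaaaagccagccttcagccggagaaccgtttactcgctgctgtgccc
OAS3, chr12:112938294-112938493, plus strand: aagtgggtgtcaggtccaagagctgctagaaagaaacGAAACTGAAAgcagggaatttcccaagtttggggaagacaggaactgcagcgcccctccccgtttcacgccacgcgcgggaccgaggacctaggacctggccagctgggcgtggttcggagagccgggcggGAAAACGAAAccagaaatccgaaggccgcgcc
TAP1, chr6:32853685-32853884, minus strand: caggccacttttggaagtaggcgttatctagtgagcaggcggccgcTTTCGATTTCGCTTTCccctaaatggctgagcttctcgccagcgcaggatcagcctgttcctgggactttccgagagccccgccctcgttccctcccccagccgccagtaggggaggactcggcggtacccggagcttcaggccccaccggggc
DTX3L, chr3:122564158-122564357, plus strand: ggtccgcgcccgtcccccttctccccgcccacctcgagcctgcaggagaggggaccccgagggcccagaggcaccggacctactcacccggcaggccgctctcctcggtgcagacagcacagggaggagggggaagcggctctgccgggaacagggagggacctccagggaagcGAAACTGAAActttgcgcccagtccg
SAMD9, chr7:93117960-93118159, minus strand: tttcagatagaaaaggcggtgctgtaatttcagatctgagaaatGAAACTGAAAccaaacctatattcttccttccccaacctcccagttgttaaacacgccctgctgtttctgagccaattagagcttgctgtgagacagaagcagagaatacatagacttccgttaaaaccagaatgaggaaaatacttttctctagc

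The first base of the match lay 58 bases before the start in LGALS3BP, 6 before it in DTX3L and 136 before it in SAMD9. IFI6 held 3 matches and OAS3 and TAP1 held 2 each. Windows of 250 bases before to 50 after the start were found for 10233 tested genes, 65 of them among the 83 genes that fell by the test described next. This repeat was in 23 of the 65 windows (35.4%), against 280 of the 10233 (2.74%). In the 100 bases before the start it was in 12 of the 65 (18.5%), against 91 of all windows (0.889%). Genes without a call whose groups did not overlap held it in 10 of 172 windows (5.81%) where IRF2 guides were lower and in 4 of 150 (2.67%) where they were higher. Of the 8 windows of genes called higher 2 held it. TTCNNNGAA, the letters bound by STAT dimers, was in 6 of the 65 windows (9.23%) and in 634 of the 10233 (6.20%). The motifs were searched on both strands, they can overlap, and a match is a description of letters, not a binding site.

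Values below are log2 normalised reads with the library medians aligned at 5.61, given in order for replicate 1 and 2 of a group. Differences are IRF2 guides minus controls on that scale with their standard error, n = 4 libraries a group. Genes were called at an adjusted p under 0.05 in limma's moderated test of 4 against 4 libraries, two-sided, with Benjamini-Hochberg adjustment over all 14665 genes.

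IRF2 itself fell with both guides. This targeted gene lies on the minus strand at chr4:184387713-184474580 (hg38). Its values were -0.32 and 0.50 with sg1-IRF2, 1.96 and 1.99 with sg2-IRF2, 5.43 and 5.61 with sgAAVS1 and 5.62 and 5.58 in untransduced cells. These rest on 4 and 8 reads with sg1-IRF2, 22 and 21 with sg2-IRF2, 196 and 291 with sgAAVS1 and 271 and 268 in untransduced cells. All 4 IRF2-guide libraries lay far below all 4 controls, with a gap of 3.44 between the nearest libraries. The groups averaged 1.03 ± 1.14 with IRF2 guides and 5.56 ± 0.09 in controls (SD), a difference of -4.53 ± 0.37 (adjusted p = 2.3e-06), or 23.1-fold. The ratio of reads, controls over IRF2 guides, was 18.7 with a 95% counting interval of 14.3 to 25.0. Of 15 tested neighbours of IRF2 on 4q35 0 were called by limma over all genes, where 854 had an unadjusted p under 0.05. Of 14 tested genes around AAVS1 0 were called as well. Over all tested genes 0.566% were called lower and 0.0614% higher, so 0 calls in sets this small is near that share. PPP1R12C, a member of the 14, had 0.38 ± 0.14 (adjusted p = 0.52) with groups that overlapped. It averaged 6.99 with IRF2 guides and 6.61 in controls. That control mean pools cells with the guide to the AAVS1 site and untransduced cells, so the difference is not read as one of IRF2 guides.

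More genes were called lower than higher, and the called falls were larger than the called rises. The groups did not overlap, with IRF2 guides lower, in 2.16% of tested genes and, with IRF2 guides higher, in 1.59%. The order of these shares turned on sgAAVS1 libraries: without sgAAVS1 replicate 1 there were 611 such genes lower and 645 higher, and without sgAAVS1 replicate 2 there were 504 lower and 567 higher. The test called 83 genes lower (0.566%) and 9 higher (0.0614%), 854 genes having an unadjusted p under 0.05, 478 of them lower and 376 higher. All 92 called genes were among the 550, but since the 550 were picked on the same values nothing is read from that. The 83 had a median difference of -0.70, ranging from -5.03 to -0.19, and 34 were past 2-fold, 16 past 4-fold and 8 past 8-fold. The 9 had a median of 0.31, ranging from 0.20 to 0.55, with 0 past 2-fold. The median over all tested genes was 0.01. The other genes without overlap, 234 lower and 224 higher, had median differences of -0.25 and 0.16. With each of the 4 groups counted as 1 sample, limma called 28 genes lower and 2 higher, and 56 of the 83 and 4 of the 9 were called whichever library was left out. Among the genes named below, some kept their calls without any 1 library but lost them with each group as 1 sample. They were IFI6, HLA-C, TAPBP, PSMB10, FLT3LG, CTD-3148I10.15, C5orf56, IFIT3, PARP10, NMI, RBM43 and RCN1. The same held for TRIM34, TRIM6-TRIM34, TRIM56, ZNF136, ZNF850, ZNF551, ZNF304, ZNF26, ZNF749 and ZNF814. Their adjusted p in limma with each group as 1 sample ran from 0.075 for HLA-C to 0.47 for RCN1. RNA was measured in bulk, so fewer cells with a transcript and less of it per cell cannot be told apart.

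**Figure D1:**
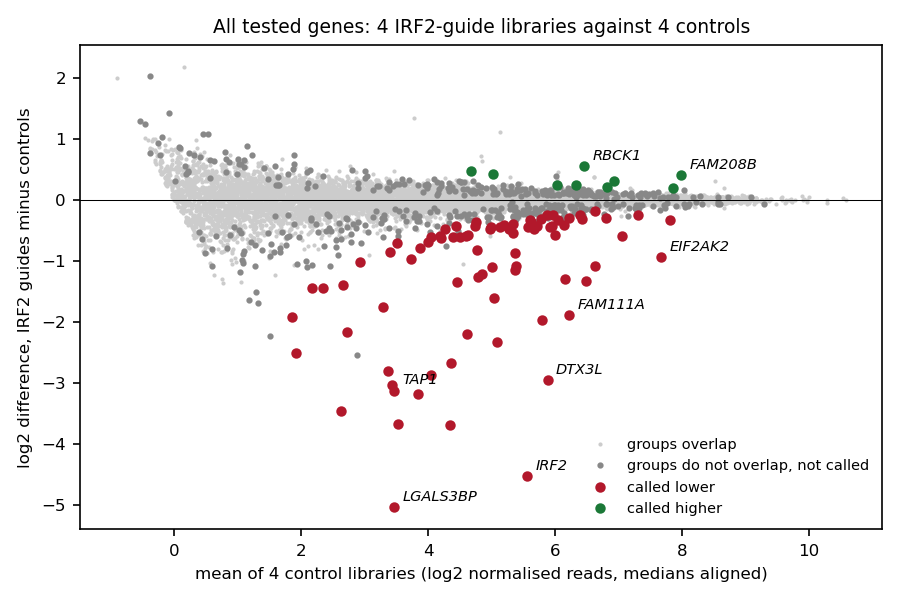
Difference between IRF2 guides and controls (log2, vertical axis) against the mean of the 4 control libraries (log2 normalised reads, horizontal axis) for all 14665 tested genes. Red points are the 83 genes called lower, green points the 9 called higher, dark grey points genes whose groups did not overlap but that were not called, and light grey points genes whose groups overlapped; the red points reach -5.03 and the green points 0.55.

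**Figure D2:**
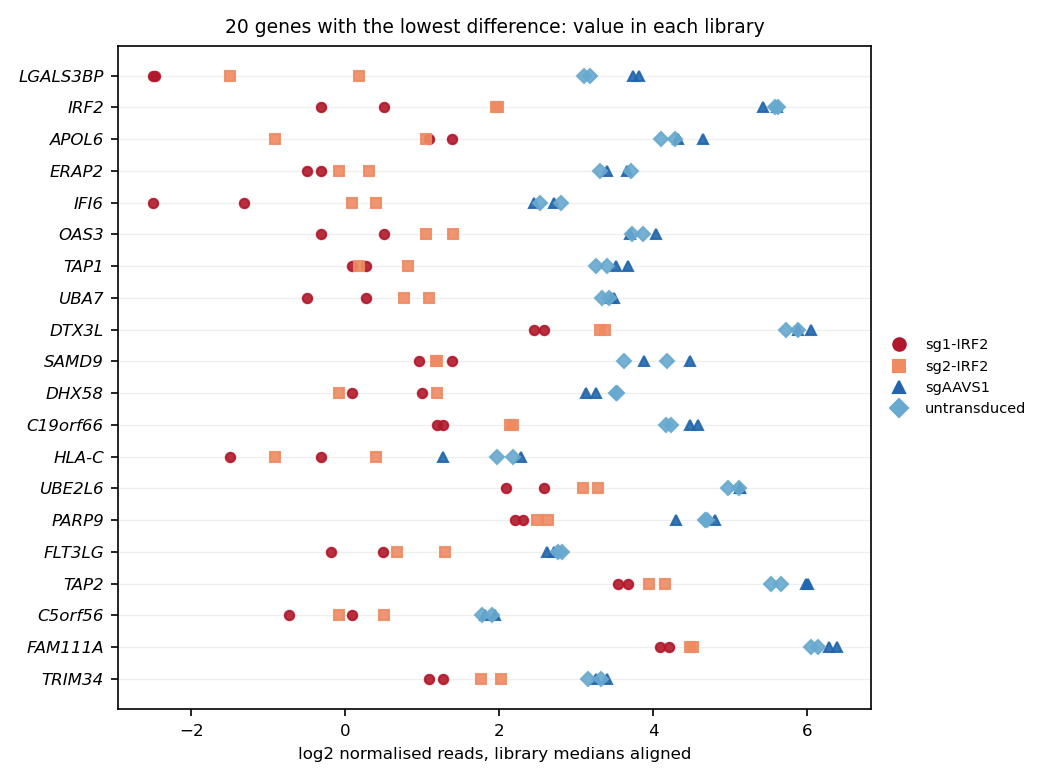
Value of the 20 genes with the lowest difference in each library (log2 normalised reads, medians aligned). In every row the 4 IRF2-guide libraries (circles and squares) lie left of the 4 controls (triangles and diamonds), and in 19 of the 20 the mean of sg1-IRF2 lies below that of sg2-IRF2.

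Transporter, peptidase and proteasome genes that supply peptides to MHC class I were among the lower genes. Of 14 tested genes in the list for antigen processing, 8 were called lower and 0 higher, with a median difference of -0.45 over the 14. The shares over all tested genes, 0.566% lower and 0.0614% higher, stand beside this and the list counts that follow. TAP1, a subunit of the transporter that moves peptides into the endoplasmic reticulum, had 0.27 and 0.08 with sg1-IRF2, 0.82 and 0.18 with sg2-IRF2, 3.51 and 3.67 with sgAAVS1 and 3.26 and 3.40 in untransduced cells. Every IRF2-guide library was at or below 0.82 and every control at or above 3.26, and TAP1 differed by -3.13 ± 0.21 (adjusted p = 1.8e-07). TAP2, the other subunit of that transporter, had 3.54 and 3.67 with sg1-IRF2, 4.16 and 3.95 with sg2-IRF2, 6.01 and 5.98 with sgAAVS1 and 5.66 and 5.54 in untransduced cells, and differed by -1.97 ± 0.13 (adjusted p = 1.7e-07). ERAP2, an aminopeptidase that trims peptides in the endoplasmic reticulum, had -0.32 and -0.50 with sg1-IRF2, 0.30 and -0.08 with sg2-IRF2, 3.40 and 3.65 with sgAAVS1 and 3.32 and 3.71 in untransduced cells. Its groups were apart by 3.01 at the nearest libraries, and it differed by -3.67 ± 0.22 (adjusted p = 1e-07). ERAP1, its partner enzyme, differed by -1.33 ± 0.07 (adjusted p = 1.2e-08), and its exons overlap CAST on the other strand over 3.76% of their length.

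The other called members of the list were a heavy chain, a loading factor and proteasome genes. HLA-C, an MHC class I heavy chain, had 4 and 2 reads with sg1-IRF2, 3 and 7 with sg2-IRF2, 11 and 29 with sgAAVS1 and 25 and 22 in untransduced cells, and differed by -2.51 ± 0.40 (adjusted p = 0.00358). That call was also lost with sgAAVS1 controls alone (adjusted p = 0.0836) and without the mean-variance trend (adjusted p = 0.0698) in limma. Its listed span (chr6:31268749-31357158) also covers HLA-B, and HLA genes are alike in sequence, so these reads are not assigned to HLA-C with certainty. TAPBP, which bridges the transporter and the heavy chain, differed by -0.34 ± 0.04 (adjusted p = 0.00011), PSME1, a proteasome activator subunit, by -1.08 ± 0.09 (adjusted p = 1.9e-06), and PSMB10, an immunoproteasome subunit, by -0.57 ± 0.09 (adjusted p = 0.00413). PSMB8 and PSMB9, the other immunoproteasome subunits, stayed under the filter on low values. PSMB8 had 0 reads over the 4 IRF2-guide libraries and 40 over the controls. That is at least 13.4-fold lower if 3 reads over the group are taken as the floor and the control reads as exact. PSMB9 had 0 and 10 reads, at least 3.35-fold lower on the same terms, with few control reads. The peptide-loading chaperones did not pass the test: CALR had 0.03, CANX -0.00 and PDIA3 -0.01. B2M, which pairs with every class I heavy chain, averaged 6.84 ± 0.08 with IRF2 guides and 6.83 ± 0.09 in controls (SD), a difference of 0.02 ± 0.05 (adjusted p = 0.9999). HLA-E, another class I heavy chain, had -0.11 ± 0.04 (adjusted p = 0.68) on 2662 reads with IRF2 guides and 2858 in controls, and PSME2, the partner subunit of PSME1, had -0.15 ± 0.06 (adjusted p = 0.70); neither was called, though the groups did not overlap for PSME2.

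In the ISG15 pathway UBA7 and UBE2L6 were called lower, and ISG15 itself and TRIM25 were not called. ISG15 is a ubiquitin-like protein that UBA7 activates and UBE2L6 passes on to targets, and 2 of the 4 tested genes of the pathway were called. UBA7 had 0.27 and -0.50 with sg1-IRF2, 1.08 and 0.76 with sg2-IRF2, 3.46 and 3.49 with sgAAVS1 and 3.34 and 3.43 in untransduced cells, a difference of -3.03 ± 0.28 (adjusted p = 8.4e-06). UBE2L6 had 2.59 and 2.08 with sg1-IRF2, 3.28 and 3.09 with sg2-IRF2, 5.12 and 5.13 with sgAAVS1 and 4.98 and 5.11 in untransduced cells, a difference of -2.33 ± 0.19 (adjusted p = 2.2e-06). ISG15 averaged 3.35 ± 0.25 with IRF2 guides and 3.70 ± 0.20 in controls (SD), and its groups overlapped, with a difference of -0.34 ± 0.14 (adjusted p = 0.71). TRIM25, a ligase of the pathway, had -0.14 ± 0.04 (adjusted p = 0.15), with groups that did not overlap but no call.

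Of 8 tested ADP-ribosylation genes 5 were called lower and 0 higher, with a median difference of -1.18. DTX3L is a ubiquitin ligase that works as a dimer with PARP9, and the genes lie head to head on chromosome 3, DTX3L at 122564238 to 122575203 on the plus strand and PARP9 at 122527924 to 122564577 on the minus strand. DTX3L had 2.59 and 2.45 with sg1-IRF2, 3.30 and 3.38 with sg2-IRF2, 5.88 and 6.05 with sgAAVS1 and 5.88 and 5.72 in untransduced cells, a difference of -2.95 ± 0.17 (adjusted p = 7e-08). PARP9 had 2.20 and 2.30 with sg1-IRF2, 2.50 and 2.64 with sg2-IRF2, 4.30 and 4.80 with sgAAVS1 and 4.69 and 4.67 in untransduced cells, a difference of -2.21 ± 0.13 (adjusted p = 1e-07). All IRF2-guide libraries of both genes lay at least 1.66 below the lowest control, and their exons overlap on opposite strands over 3.70% of the length of DTX3L. PARP14, a mono-ADP-ribosyltransferase in the same stretch of chromosome 3, differed by -1.08 ± 0.07 (adjusted p = 1.2e-07), so the 3 tested genes of that stretch were all called. PARP12, an enzyme of the same kind, differed by -1.29 ± 0.08 (adjusted p = 1.3e-07) and PARP10 by -1.39 ± 0.22 (adjusted p = 0.00358). Exons of PARP10 overlap GRINA on the other strand over 5.37% of their length, and how strand was used in counting is not given in the sources used here.

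Antiviral effectors gave 9 lower and 0 higher of 26 tested, with a median of -0.36, where 0.566% of all tested genes were called lower. LGALS3BP, a secreted glycoprotein that binds galectins, had the lowest difference of all tested genes. It had 0 and 1 reads with sg1-IRF2, 2 and 6 with sg2-IRF2, 61 and 84 with sgAAVS1 and 50 and 48 in untransduced cells. A library without reads is listed at the value of 0.9 read, so its fitted difference of -5.03 ± 0.48 (adjusted p = 1.2e-05) depends on that value, and the ratio of reads, controls over IRF2 guides, was 27.1 with a 95% counting interval of 14.0 to 60.0. IFI6, an interferon-induced protein that guards against viruses and cell death, had -1.32 and -2.50 with sg1-IRF2, 0.08 and 0.40 with sg2-IRF2, 2.46 and 2.71 with sgAAVS1 and 2.53 and 2.80 in untransduced cells. Its groups were apart by 2.05, and IFI6 differed by -3.46 ± 0.49 (adjusted p = 0.00119), a call lost without the mean-variance trend in limma (adjusted p = 0.0858). OAS3, which makes 2′-5′ oligoadenylates when it meets double-stranded RNA, had -0.32 and 0.50 with sg1-IRF2, 1.40 and 1.05 with sg2-IRF2, 3.69 and 4.04 with sgAAVS1 and 3.87 and 3.73 in untransduced cells, a difference of -3.17 ± 0.29 (adjusted p = 7e-06). SAMD9, a restriction factor of poxviruses, had 1.38 and 0.96 with sg1-IRF2, 1.20 and 1.18 with sg2-IRF2, 3.88 and 4.48 with sgAAVS1 and 4.18 and 3.63 in untransduced cells, a difference of -2.86 ± 0.19 (adjusted p = 1.5e-07).

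C19orf66, also called shiftless, which blocks the frameshifting some viruses rely on, had 1.27 and 1.20 with sg1-IRF2, 2.14 and 2.18 with sg2-IRF2, 4.58 and 4.48 with sgAAVS1 and 4.16 and 4.23 in untransduced cells. No IRF2-guide library reached 2.2 and no control was under 4.1, and it differed by -2.67 ± 0.21 (adjusted p = 1.9e-06); its exons overlap ANGPTL6 on the other strand over 10.2% of their length. EIF2AK2 encodes PKR, a kinase that senses double-stranded RNA and stops protein synthesis. It was the most highly expressed member called, with 6.63 and 6.83 with sg1-IRF2, 6.71 and 6.78 with sg2-IRF2, 7.65 and 7.74 with sgAAVS1 and 7.67 and 7.63 in untransduced cells. It differed by -0.94 ± 0.05 (adjusted p = 1.2e-08), a smaller difference with a tight spread. IFIT3 differed by -1.44 ± 0.23 (adjusted p = 0.00397) and the deaminase APOBEC3G by -0.59 ± 0.11 (adjusted p = 0.0123), and APOBEC3G missed the threshold without sgAAVS1 replicate 2. IFI27 had -0.91 ± 0.22 (adjusted p = 0.10), ISG20 -0.53 ± 0.19 (adjusted p = 0.55), LGALS9 -0.42 ± 0.13 (adjusted p = 0.37) and SAMHD1 -0.26 ± 0.07 (adjusted p = 0.17): their groups did not overlap but they were not called. Other members had small differences and groups that overlapped: BST2 0.06, IFITM1 0.07, IFITM2 -0.01, ADAR -0.03, PLSCR1 -0.08 and APOBEC3C 0.05. Of the 26 tested members 23 had a difference below 0. IFIT1 and MX1, which respond strongly to interferon in many cells, had at most 3 reads in any library, and IFNB1, IFNA1, IFNG and IFNL1, the interferon genes looked up, had none.

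**Figure D3:**
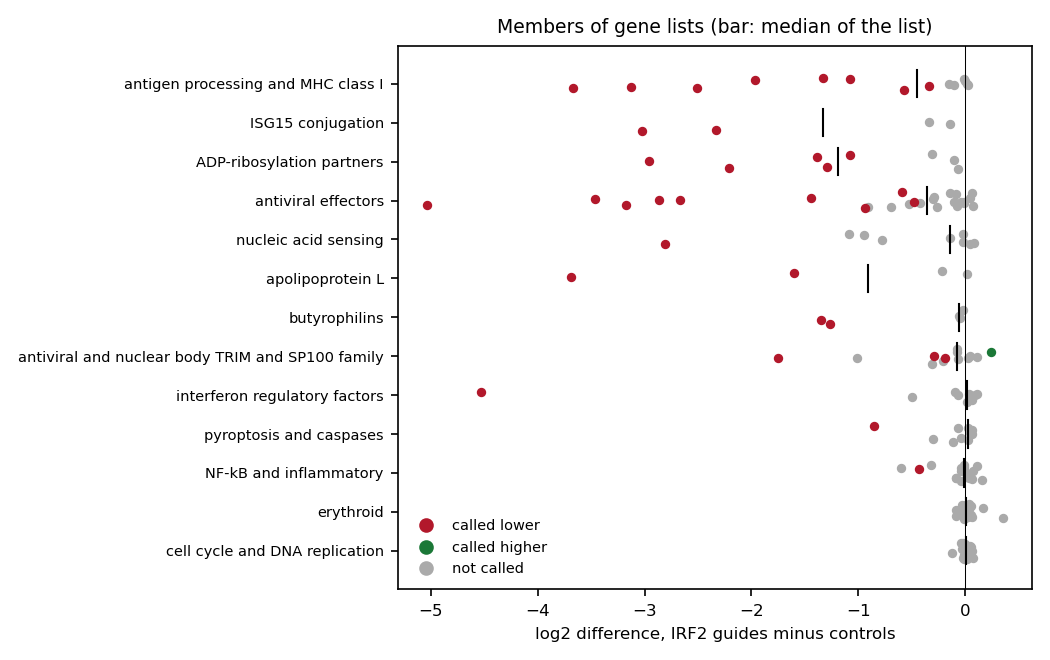
Difference between IRF2 guides and controls (log2) for the tested members of 13 gene lists, 1 row a list. Red points are members called lower, green points members called higher and grey points members not called; the black bar is the median of the list, which is -0.45 for antigen processing and 0.01 for erythroid genes.

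Sensors of foreign nucleic acid gave 1 call in 9. DHX58, the RNA-binding protein LGP2 of the RIG-I family, had 1.003 and 0.08 with sg1-IRF2, 1.20 and -0.08 with sg2-IRF2, 3.13 and 3.26 with sgAAVS1 and 3.53 and 3.52 in untransduced cells, a difference of -2.81 ± 0.27 (adjusted p = 1.4e-05). DDX58, which encodes RIG-I, had -0.78 ± 0.20 (adjusted p = 0.14) and DDX60L -1.09 ± 0.26 (adjusted p = 0.0961); in both the groups did not overlap but the test was not passed. MAVS, the adaptor of these RNA sensors, had 0.08, and TBK1, a kinase further down, had -0.02.

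Apart from IRF2, the tested transcription factors and receptors of interferon signalling showed no fall that passed the test. Of 15 tested genes of interferon receptors and JAK-STAT 0 were called lower, near the 0.566% called lower over all tested genes, and the median was 0.01. IRF1, the activator that IRF2 competes with, averaged 4.75 ± 0.06 with IRF2 guides and 4.85 ± 0.04 in controls (SD), a difference of -0.10 ± 0.07 (adjusted p = 0.9999). IRF9, a partner of STAT2, had 0.11 and IRF3 0.01. IRF2 was the 1 called gene of 9 tested in the list of interferon regulatory factors. That list also holds IRF2BP1, IRF2BP2 and IRF2BPL, genes of IRF2 binding proteins. C5orf56, a transcript next to IRF1 on chromosome 5 (132410636 to 132476044, with IRF1 from 132481609 to 132490798), differed by -1.92 ± 0.29 (adjusted p = 0.0027), on 22 reads with IRF2 guides and 79 in controls.

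In 2 families with neighbouring members some were called and others were not. APOL6, an apolipoprotein L gene of chromosome 22, had 1.38 and 1.08 with sg1-IRF2, -0.92 and 1.05 with sg2-IRF2, 4.32 and 4.65 with sgAAVS1 and 4.29 and 4.10 in untransduced cells, a difference of -3.69 ± 0.37 (adjusted p = 1.9e-05). APOL1, the family member that kills trypanosomes, had 3.54 and 3.43 with sg1-IRF2, 3.47 and 3.32 with sg2-IRF2, 5.05 and 5.28 with sgAAVS1 and 4.82 and 5.01 in untransduced cells, a difference of -1.60 ± 0.10 (adjusted p = 1.2e-07). Of 4 tested members these 2 were called, and APOL2 had -0.22 and APOL4 0.02. Among 5 tested butyrophilins, surface proteins of which BTN3A1 presents phosphoantigens to gamma-delta T cells, BTN3A1 differed by -1.27 ± 0.12 (adjusted p = 1.3e-05) and BTN3A2 by -1.35 ± 0.14 (adjusted p = 4.7e-05), while BTN3A3 had -0.06 and was not called. Differences between these members were not tested.

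Of 13 tested antiviral TRIM and nuclear body genes, 3 were called lower and 1 higher. TRIM34 had 1.27 and 1.08 with sg1-IRF2, 2.02 and 1.76 with sg2-IRF2, 3.40 and 3.26 with sgAAVS1 and 3.15 and 3.33 in untransduced cells, a difference of -1.75 ± 0.20 (adjusted p = 0.00012). Exons of TRIM34 overlap the readthrough gene TRIM6-TRIM34 on the same strand over 83.0% of their length, so their reads are not told apart; the readthrough differed by -0.61 ± 0.09 (adjusted p = 0.00136) and TRIM6 had 0.03. TRIM56 differed by -0.29 ± 0.05 (adjusted p = 0.00358) and TRIM38 by -0.19 ± 0.04 (adjusted p = 0.0314), small differences between tight groups. TRIM38 missed the threshold whichever library was left out (adjusted p = 0.0613 to 0.138). TRIM22 had -1.01 ± 0.27 (adjusted p = 0.20), with groups that did not overlap but no call. SP100, the member called higher, is described with the other rises.

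Single members of other lists were called. GSDMD, whose product forms the membrane pores of pyroptosis, was the 1 called gene of 12 in its list, with 2.59 and 2.08 with sg1-IRF2, 2.45 and 3.05 with sg2-IRF2, 3.33 and 3.33 with sgAAVS1 and 3.32 and 3.61 in untransduced cells. It differed by -0.85 ± 0.18 (adjusted p = 0.0382), but of the fits that leave out 1 library only the fit without sg2-IRF2 replicate 2 kept the call, adjusted p running from 0.0046 to 0.15. TNFRSF14, a receptor of the TNF family, was the 1 called gene of 17 NF-kB and inflammatory genes, with a difference of -0.43 ± 0.08 (adjusted p = 0.021); it was called in the fits without sg1-IRF2 replicate 1, sg1-IRF2 replicate 2 and untransduced replicate 2 and lost in the other 5 (adjusted p up to 0.079). COL1A2, a collagen gene, was the 1 called gene of 7 tested adherent-line markers and differed by -0.70 ± 0.14 (adjusted p = 0.0344), a call kept only in the fit without sgAAVS1 replicate 1 (adjusted p up to 0.142 in the others). Summed reads of the 8 listed adherent-line markers were 5004 to 5500 with IRF2 guides and 4793 to 5610 in controls, those of 5 monocyte markers 450 to 529 and 382 to 531. By limma over all genes 0 members were called among 30 erythroid genes (median 0.01), 32 cell cycle and DNA replication genes (0.01), 2 lymphoid genes and 2 monocyte genes. Over all tested genes 0.566% were called lower and 0.0614% higher, so 0 calls in lists this small is near that share.

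The lists held 36 of the 83 lower genes, and 47 were in none. FAM111A, a protease that restricts viral replication, had 4.09 and 4.21 with sg1-IRF2, 4.47 and 4.51 with sg2-IRF2, 6.28 and 6.39 with sgAAVS1 and 6.14 and 6.05 in untransduced cells. The groups were apart by 1.54, and it differed by -1.89 ± 0.10 (adjusted p = 1.2e-08). FLT3LG, the ligand of the receptor FLT3, had 0.49 and -0.18 with sg1-IRF2, 0.67 and 1.30 with sg2-IRF2, 2.62 and 2.71 with sgAAVS1 and 2.82 and 2.77 in untransduced cells, a difference of -2.16 ± 0.27 (adjusted p = 0.0003); the unnamed gene CTD-3148I10.15 covers much of the same span and differed by -1.45 ± 0.24 (adjusted p = 0.00608). Other genes outside the lists, chosen after their values were seen, were receptor genes: IL17RC, a subunit of the interleukin-17 receptor, at -1.15 ± 0.09 (adjusted p = 7.5e-07), IL15RA, which binds interleukin-15, at -1.10 ± 0.10 (adjusted p = 1.2e-05), and the orphan receptor GPR158 at -1.21 ± 0.11 (adjusted p = 5.2e-06). CDKN1A, the cell cycle inhibitor p21, also chosen after its values were seen, differed by -0.42 ± 0.08 (adjusted p = 0.0177), with 5.27 and 5.23 with sg1-IRF2, 5.23 and 5.27 with sg2-IRF2, 5.48 and 5.52 with sgAAVS1 and 5.86 and 5.83 in untransduced cells. It was lost from the calls in 5 of the 8 fits without 1 library, namely without either sg1-IRF2 library, sg2-IRF2 replicate 1 or either untransduced library. The kinds of control also differed for CDKN1A, by -0.34 ± 0.07 (adjusted p = 0.00842) for sgAAVS1 minus untransduced.

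Zinc finger genes made up the largest block outside the lists, a group picked after its values were seen. Of 405 tested genes named ZNF and a number, 15 were called lower and 2 higher, and the groups did not overlap in 55 with IRF2 guides lower and 3 with them higher. That is 3.70% called lower, against 0.477% of the other tested genes, and 13.6% lower without overlap, against 1.84%; the median difference of the 405 was -0.04. On chromosome 19, which carries large clusters of these genes, 11 of 201 were called lower and 45 lay lower without overlap, while on the other chromosomes 4 of 204 and 10 of 204 did so. Between 57191500 and 57889074 on chromosome 19 stood 23 tested ZNF genes, of which 22 had a difference below 0 and 8 were called: ZNF264, ZNF304, ZNF749, ZNF772, ZNF134, ZNF211, ZNF551 and ZNF814. The median of the 23 was -0.33. The 15 other tested genes of that stretch had similar values, with 14 below 0, 6 lower without overlap and a median of -0.31, and 0 of them were called by limma over all genes.

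The 15 called lower ZNF genes had differences of -0.61 to -0.25, with a median of -0.42, while the 405 ranged from -1.51 to 2.01, with 263 below 0. ZNF551 had 5.71 and 5.82 with sg1-IRF2, 5.74 and 5.66 with sg2-IRF2, 6.16 and 6.20 with sgAAVS1 and 6.13 and 6.10 in untransduced cells, a difference of -0.41 ± 0.05 (adjusted p = 0.00023). ZNF304 had 4.62 and 4.79 with sg1-IRF2, 4.87 and 4.87 with sg2-IRF2, 5.26 and 5.35 with sgAAVS1 and 5.33 and 5.39 in untransduced cells, a difference of -0.54 ± 0.07 (adjusted p = 0.00043). In both the IRF2-guide libraries stayed below every control by 0.28 or more. At the end of chromosome 12, between 132986365 and 133159465, all 5 tested ZNF genes lay lower without overlap and 4 were called, ZNF26 (-0.44 ± 0.06 (adjusted p = 0.00204)), ZNF140, ZNF891 and ZNF10; the 1 other tested gene of that stretch had -0.43 and was not called. Of the 15 called ZNF genes 5 were called whichever library was left out. ZNF814 overlaps ZNF587 on the other strand over 19.4% of its exons and ZNF140 overlaps ZNF891 over 13.5%, and members of this family are alike in sequence, so the reads of single genes are not assigned with certainty.

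Called genes of other families also stood near one another. With all called genes joined where they lie within 200 kb, the zinc finger genes above included, 37 formed 14 clusters, most with all members lower, such as TAP1 with TAP2, ERAP1 with ERAP2, and NMI with RBM43. Some join genes whose spans overlap, among them TRIM34 with TRIM6-TRIM34 and FLT3LG with CTD-3148I10.15. How often tested genes lie this close was not computed, so nothing is read from the number of clusters. In 2 clusters neighbours moved in opposite directions, FAM208B higher beside IL15RA lower on chromosome 10, and ZNF850 higher beside ZNF529 lower on chromosome 19. ZNF529 lost its call in all but 1 of the 8 fits without 1 library, the one without sgAAVS1 replicate 1.

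Rises were few and small. RBCK1, a subunit of the ubiquitin ligase complex that builds linear chains, had 7.11 and 6.98 with sg1-IRF2, 6.99 and 6.95 with sg2-IRF2, 6.50 and 6.49 with sgAAVS1 and 6.42 and 6.43 in untransduced cells. All 4 IRF2-guide libraries lay at least 0.45 above every control, and RBCK1 rose by 0.55 ± 0.04 (adjusted p = 1.9e-06), a factor of 1.46. FAM208B, a relative of the silencing factor TASOR, had 8.42 and 8.41 with sg1-IRF2, 8.35 and 8.37 with sg2-IRF2, 7.99 and 8.09 with sgAAVS1 and 7.94 and 7.92 in untransduced cells, a difference of 0.40 ± 0.04 (adjusted p = 1.9e-05). ZNF136 differed by 0.42 ± 0.06 (adjusted p = 0.00258) and ZNF850 by 0.31 ± 0.04 (adjusted p = 0.00042), so these zinc finger genes went against the direction of most called members of that family. RBCK1, FAM208B, ZNF136 and ZNF850 were called whichever library was left out. ADAMTS6, a secreted metalloprotease, differed by 0.48 ± 0.09 (adjusted p = 0.019) and CXorf38 by 0.25 ± 0.05 (adjusted p = 0.0117); both missed the threshold without sg2-IRF2 replicate 1 or sg2-IRF2 replicate 2 (adjusted p up to 0.0779 and 0.0595).

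SP100, a scaffold of nuclear bodies, had 6.24 to 6.33 in the 4 IRF2-guide libraries, against 5.96 to 6.11 in the 4 controls, so the groups did not overlap. It differed by 0.24 ± 0.05 (adjusted p = 0.0226) and FYB, an adaptor of T cell signalling, by 0.20 ± 0.04 (adjusted p = 0.0273). Each of the calls was kept in 2 of the 8 fits without 1 library: SP100 in those without sgAAVS1 replicate 1 and untransduced replicate 1 (adjusted p up to 0.118 in the others) and FYB in those without either sgAAVS1 library (up to 0.115). Without centring on the library median both calls were lost too. STAT2, a transcription factor of interferon signalling, had 0.11 ± 0.04 (adjusted p = 0.57) and SOCS1, a feedback inhibitor of the pathway, had 0.32 ± 0.09 (adjusted p = 0.21), both with groups that did not overlap but no call.

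**Figure D4:**
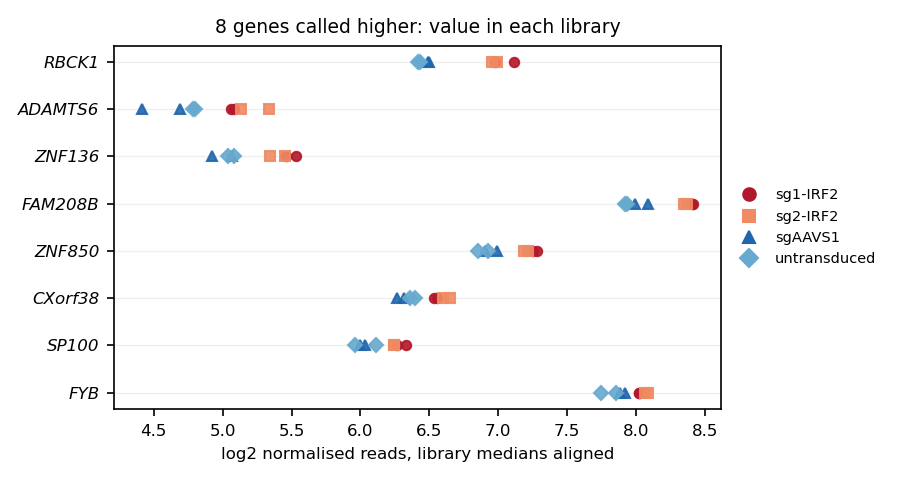
Value of 8 of the genes called higher in each library (log2 normalised reads, medians aligned). In every row the 4 IRF2-guide libraries lie right of the 4 controls; the gap is widest for RBCK1, at 0.45, and narrowest for FYB, at 0.10.

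The border of the rule lay among very small differences. The 3 genes just inside it had gaps of 0.000126 (INCENP, difference 0.06), 0.000206 (SMTN, 0.17) and 0.000354 (OMA1, -0.26). Just outside it, WDR13 (0.10), ADAM8 (0.18) and GTF3C1 (0.04) overlapped by less than 0.001, genes picked after their values were seen. None of these 6 was called.

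For part of the lower genes the values differed between the guides. In the comparison of sg1-IRF2 with sg2-IRF2, 231 of all tested genes were called (1.58%), 86 higher and 145 lower with sg1-IRF2. Of the 83 lower genes in 57 the mean of sg1-IRF2 lay under that of sg2-IRF2, and this passed the test in 9, with 1 called the other way. The median of sg1-IRF2 minus sg2-IRF2 was -0.09 over the 83 and 0.0002 over all tested genes. IRF2 differed between the guides by -1.88 ± 0.21 (adjusted p = 0.0001). The others were IFI6 (-2.15 ± 0.44 (adjusted p = 0.015)), OAS3 (-1.14 ± 0.28 (adjusted p = 0.0475)), C19orf66 (-0.93 ± 0.18 (adjusted p = 0.00891)), UBE2L6 (-0.85 ± 0.15 (adjusted p = 0.00627)), DTX3L (-0.82 ± 0.11 (adjusted p = 0.00054)), TAP2 (-0.45 ± 0.10 (adjusted p = 0.0238)), FAM111A (-0.34 ± 0.08 (adjusted p = 0.0367)) and PARP12 (-0.32 ± 0.07 (adjusted p = 0.0365)). RCN1, a calcium-binding protein of the endoplasmic reticulum, was the exception, higher with sg1-IRF2 by 0.56 ± 0.11 (adjusted p = 0.0119). SAMD9 (-0.02 ± 0.25 (adjusted p = 0.98)) and EIF2AK2 (-0.02 ± 0.06 (adjusted p = 0.93)) did not pass the test. The count of 231 turned on single libraries: it was 75 and 67 without sg1-IRF2 replicate 1 and 2, 54 and 36 without sg2-IRF2 replicate 1 and 2, 700 and 703 without sgAAVS1 replicate 1 and 2, and 122 without either untransduced library. It was 4 without the mean-variance trend in the fit.

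The kinds of control also differed. Between sgAAVS1 and untransduced cells 648 genes were called (4.42%), 302 higher and 346 lower with sgAAVS1. That count was 973 and 1335 without sgAAVS1 replicate 1 and 2, 172 and 127 without untransduced replicate 1 and 2, and 10 without the trend. Which comparison gave more calls depended on the scaling: without centring it was 697 genes between the kinds of control and 1952 between the guides. Of the 83 lower genes 3 were among the 648, a share near that of all tested genes, TAP2 (0.40 ± 0.10 (adjusted p = 0.0256)), HELZ2 (-0.18 ± 0.05 (adjusted p = 0.0426)) and CDKN1A, and of the 9 higher genes 0 were. These are smaller than the differences of TAP2 and HELZ2 between IRF2 guides and controls, -1.97 and -0.59.

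Each guide was also set against a kind of control of its own, so that the comparisons share no library. With sg1-IRF2 minus sgAAVS1, 62 genes were called lower (0.423%) and 27 higher (0.184%), and with sg2-IRF2 minus untransduced 240 lower (1.64%) and 159 higher (1.08%). The lower calls shared 52 genes, 83.9% of the 62 and 21.7% of the 240. Of those, 48 were also called in 4 against 4, but that fit uses the same libraries, so nothing is read from that. Of the 62 genes 61 had a difference below 0 in the other comparison. The higher calls shared 6 genes, 22.2% of the 27 and 3.77% of the 159, among them RBCK1 (0.55 for sg1-IRF2 minus sgAAVS1 and 0.55 for sg2-IRF2 minus untransduced), FAM208B (0.37 for sg1-IRF2 minus sgAAVS1 and 0.43 for sg2-IRF2 minus untransduced), ZNF136, ZNF850 and ADAMTS6. DTX3L had -3.44 for sg1-IRF2 minus sgAAVS1 and -2.46 for sg2-IRF2 minus untransduced, TAP1 had -3.42 for sg1-IRF2 minus sgAAVS1 and -2.83 for sg2-IRF2 minus untransduced and EIF2AK2 had -0.97 for sg1-IRF2 minus sgAAVS1 and -0.90 for sg2-IRF2 minus untransduced. With the guides and controls paired the other way, sg1-IRF2 minus untransduced gave 768 genes lower (5.24%) and 790 higher (5.39%), and sg2-IRF2 minus sgAAVS1 gave 119 lower (0.811%) and 139 higher (0.948%). The lower calls shared 57 genes, 7.42% of the 768 and 47.9% of the 119, and the higher calls 7, 0.886% of the 790 and 5.04% of the 139. Of the 768 genes 222 had a difference below 0 in the other comparison, and 66 genes called lower with sg1-IRF2 minus untransduced were called higher with sg2-IRF2 minus sgAAVS1.

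**Figure D5:**
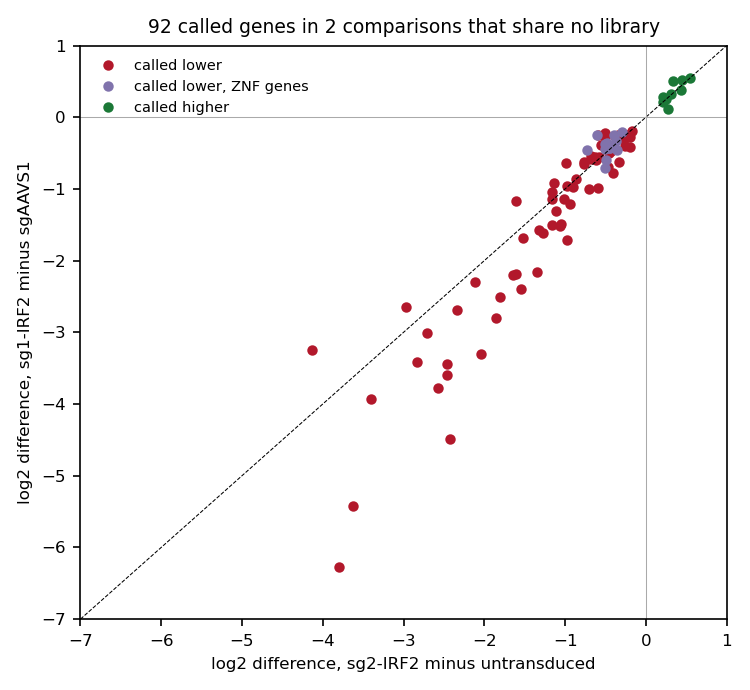
The 92 called genes in the comparisons that share no library: sg2-IRF2 minus untransduced (log2 difference, horizontal axis) and sg1-IRF2 minus sgAAVS1 (vertical axis), with the line of equal values dashed. Red points are genes called lower, violet points ZNF genes called lower and green points genes called higher; LGALS3BP, the lowest point, lies at -3.80 and -6.27. The 92 genes were called on these same libraries, so their direction here is a description.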

How the data were processed

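RNA was measured in 8 libraries of K562 dCas9-KRAB cells, 2 in each of 4 groups. The authors deposited 1 table of log2 values for all libraries; per the submitters' processing notes cutadapt, Bowtie2 and hg38 were used, while for the counter, strand setting, duplicate reads and annotation the answer is not given in the sources used here. On the linear scale each value was a whole multiple of that of 1 read (100% within 0.01 read), with genes without reads listed at 0.9 read, so reads were recovered and used for depth, intervals and voom. Intervals cover counting error only, and the floor of 3 reads covers only that of the IRF2-guide libraries.

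Genes with mean log2 at or above 0 were tested (14665 of 35805) after aligning library medians, with limma 3.58.1 in R 4.3.3 (lmFit, eBayes with trend). Guide and control differences came from a fit of 4 group means. The fit was tested on simulated data. Python 3.11.15, numpy 2.4.6, pandas 2.3.3, scipy 1.17.1 and matplotlib 3.10.9 did the rest. Exon overlaps used GENCODE release 29, to which 83.2% of tested genes were matched by name and strand. Promoters came from RefSeq (GRCh38.p14); where a gene had several windows, the one nearest the listed 5′ end was taken.

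The genes, lists and tests were chosen with earlier results of these data known. Named were IRF2, the 20 lowest and all 9 highest called genes, up to 5 called members of each list by lowest p, and the genes at the border of the rule. Of these, 1 gene called higher and 1 called list member are not reported here. Others are marked as chosen after their values were seen, were list members given as examples, or share a locus with a named gene. Replicate numbers were not taken to pair the libraries, since the correlation of deviations was over 0.1 in only 1 pair of groups, sg1-IRF2 and sgAAVS1 (0.22, against -0.08 to 0.02 in the others). The alternatives were scaling, filter, pseudocount, spread, trend, voom, a replicate block, leaving out a library, a guide or a kind of control, and counting each group as 1 sample.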

Additional observations from a re-analysis of the deposited data

Results flagged for a closer look

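In some genes 1 library stood apart within its group of 4, a gap that chance alone gives in about 1 of 20 groups. Both groups of many named genes were looked at, so some such gaps are to be met by chance, and nothing is read from them. Among IRF2-guide libraries these were the lowest APOL6 value, -0.92 in sg2-IRF2 replicate 1, and the highest INCENP value, 7.66 in sg1-IRF2 replicate 1. Among controls they were the lowest IRF2 value, 5.43 in sgAAVS1 replicate 1, the lowest UBE2L6 value, 4.98 in untransduced replicate 1, and the highest GSDMD value, 3.61 in untransduced replicate 2. APOL6 without sg2-IRF2 replicate 1 was still called.

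For 9 of the genes called lower the values were lower with sg1-IRF2 in limma's test of sg1-IRF2 minus sg2-IRF2. The log2 differences were -1.88 for IRF2, -2.15 for IFI6, -1.14 for OAS3, -0.93 for C19orf66, -0.85 for UBE2L6, -0.82 for DTX3L, -0.45 for TAP2, -0.34 for FAM111A and -0.32 for PARP12. RCN1, also called lower, differed the other way, by 0.56.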

How the results depend on the processing

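Counting each group as 1 sample was an alternative chosen after seeing the data. Against 92 called genes (83 lower, 9 higher), counts were 209 (159, 50) with 4 group means, 59 (51 lower) without the trend, 198 (142, 56) with untransduced controls alone and 30 (28, 2) with each group as 1 sample; higher genes numbered 31 with sgAAVS1 controls alone and 5 with either guide alone. The replicate block gave 86 calls. Leaving out 1 library gave 69 to 91 calls, 63 to 83 lower and 5 to 9 higher (5 without sg2-IRF2 replicate 1 or 2). No called gene changed direction in any of these fits. Of 43 named called genes 25 were called in every alternative; 936 gene and setting pairs gave 814 calls kept and 122 lost. Genes without overlap numbered 425 to 611 lower and 359 to 645 higher without 1 library, since fewer libraries must be apart, and 139 higher without centring. Guide differences numbered 1952 without centring, 63 without the filter, 4 without the trend and 36 to 703 without 1 library. Control differences numbered 350, 10 and 127 to 1335 without the filter, the trend and 1 library. List members called lower numbered 36, and 22 with each group as 1 sample; the GAAA repeat was in 23 promoter windows and in 12 when only 100 bases before the start were read. Where not given, the cause was not tested. Depth limits the lowest genes: LGALS3BP rests on 9 and 243 reads, HLA-C on 16 and 87, IFI6 on 16 and 135.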

Other observations

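Metallothioneins, small metal-binding proteins, had lower values in sg1-IRF2 libraries than in those of sg2-IRF2, a group picked after its values were seen. All 4 tested members had differences below 0 in 4 against 4, none called by limma over all genes. MT1X had 2.44 and 2.75 with sg1-IRF2, 4.44 and 4.35 with sg2-IRF2, 4.20 and 4.37 with sgAAVS1 and 4.84 and 4.79 in untransduced cells, and MT2A had 3.93 and 3.99 with sg1-IRF2, 4.75 and 4.89 with sg2-IRF2, 4.93 and 4.73 with sgAAVS1 and 5.12 and 5.14 in untransduced cells. The guides differed in each, by -3.06 ± 0.51 (adjusted p = 0.00302) for MT1G, -2.52 ± 0.52 (adjusted p = 0.0167) for MT1E, -1.80 ± 0.13 (adjusted p = 5.9e-07) for MT1X and -0.86 ± 0.10 (adjusted p = 0.00017) for MT2A. MT1G had -2.47 and 0.08 with sg1-IRF2, and MT1E had -1.32 and -2.65. The lower value of each stands for a library without reads, listed at 0.9 read, so these guide differences depend on that value. Metallothionein genes are alike in sequence, so reads of single members are not assigned with certainty.

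Some genes without overlap had large differences on few reads and were not called. MMRN2 had 2.03 ± 0.50 (adjusted p = 0.13) with 20 and 23 reads with sg1-IRF2, 13 and 14 with sg2-IRF2, 1 and 5 with sgAAVS1 and 10 and 6 in untransduced cells. ABCB1, a drug efflux pump, had -1.64 ± 0.42 (adjusted p = 0.15) with 5 and 8 reads with sg1-IRF2, 3 and 2 with sg2-IRF2, 9 and 11 with sgAAVS1 and 12 and 19 in untransduced cells.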
